A study of Mus musculus with 69 samples.

Results

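The regions described here are 1619 stretches of chromatin that carried a peak of H3K27ac in haematopoietic stem cells (HSCs) of Kmt2c knockout mice and in neither wild-type counterpart. They were chosen by the presence of H3K27ac peaks alone: they were the merged autosomal peaks of the knockout PBS list that overlapped a peak of the knockout 5-fluorouracil (5FU) list by at least 1 bp and no peak of the wild-type PBS or wild-type 5FU list. They made up 3.21% of the 50499 autosomal H3K27ac regions of knockout PBS HSCs. Since the regions were selected on those 4 lists, every value from them below is a description with no test. The mirror rule, applied to wild-type PBS HSCs, gave 6101 of 58571 regions, or 10.4%, that were in both wild-type lists and in neither knockout list. The order of these counts turned when the 4 lists were limited to equal covered bases, but not when they were limited to equal numbers of peaks. At equal bases there were 4824 knockout-only (9.55%) and 557 wild-type-only regions (1.87%). That limit kept all 50499 knockout PBS regions but only the 29813 wild-type PBS regions of highest −log10 p. At equal numbers of peaks there were 1677 knockout-only and 4349 wild-type-only regions.

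H3K27ac is an acetyl mark on histone H3 found at active enhancers and promoters. Kmt2c encodes MLL3, a methyltransferase that places H3K4me1 at enhancers and works in a complex with the demethylase Kdm6a. H3K4me1 marks enhancers whether or not they are active, so the pair of marks separates primed from active elements. In blood-forming tissue such elements lie inside and around genes such as Runx1, Meis1 and Mecom, which HSCs need to renew themselves.

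Kmt2c knockout mice carried both conditional alleles and the Vav-Cre transgene (Kmt2c f/f; Vav-Cre), whose Cre is driven by regulatory sequence of the Vav1 gene and acts in blood cells. Heterozygous mice carried 1 conditional allele and Vav-Cre (Kmt2c f/+; Vav-Cre), and the reference mice were labelled wild type, with no transgene named. HSC H3K27ac came from mice aged 16 weeks that had received 3 doses of 150 mg/kg 5FU, a drug that kills dividing cells, or of PBS at intervals of 3 weeks, with 3 libraries in each of the 4 groups. The other 14 lists were not used by the rule. They held H3K4me1 of HSCs from the same design at 16 weeks (3 to 6 libraries per group), H3K4me1 of HSCs and of progenitor cells (HPCs) from untreated knockout, heterozygous and wild-type mice at 8 weeks (3 libraries per group), and H3K27ac of HPCs from knockout and wild-type mice aged 8 to 10 weeks given 0.5 µg of interleukin-1 (IL-1) per day or PBS for 3 days (4 libraries per group). Each group had 1 pooled peak list, so no spread between replicates could be had, no test between groups was possible, and no p-value is given. Intervals are Wilson 95% intervals and cover counting error over regions only. The labels do not say whether libraries came from separate animals. In sorted populations, more cells with a mark and more of the mark per cell cannot be told apart.

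The knockout lists covered less of the genome for H3K27ac in HSCs: 33.1 Mb (knockout PBS) and 36.1 Mb (knockout 5FU), against 41.8 Mb (wild-type PBS) and 44.9 Mb (wild-type 5FU). All 7 HSC markers had an H3K27ac peak in all 4 HSC lists, and none of 3 mature lymphocyte markers (Cd3e, Gzmb and Ms4a1) had one. The HSC markers do not single out HSCs, since 6 of the 7, all but Slamf1, also had a peak in the knockout and wild-type PBS lists of HPCs. In all 4 HSC lists, 2 of 2 megakaryocyte and erythroid markers and 2 of 3 lymphoid markers (not Il7r) had a peak as well. Of 4 granulocyte and monocyte markers, S100a8 had a peak in none of the 4 lists, Mpo lacked one in knockout PBS and Elane in knockout 5FU, and the wild-type lists held 3 each. Of 3 stromal and endothelial markers only Cdh5 had a peak, in all 4 lists. A peak at Kmt2c cannot show the deletion of its exons, and none of the 5 knockout PBS regions within 50 kb of Kmt2c was knockout-only.

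The knockout-only regions held annotated transcription starts of 23 genes. The sequences of 5 of these promoters are shown because they are examples of unlike starts among the regions: a strong region that is clear of wild-type HSC peaks, starts that carried H3K27ac in all 4 HPC lists but no H3K4me1, and a start with H3K4me1 in all 10 lists and no H3K27ac in HPCs. The 9630013D21Rik promoter belongs to a gene named by the strength of its region, and the other 4 were chosen after their values were seen. Each is the RefSeq sequence on GRCm38.p6, 5′ to 3′ on the gene's strand, from 250 bases before to 50 bases after the start. Capitals mark matches to a motif searched on both strands.
9630013D21Rik, chr4:109657539-109657838, minus strand: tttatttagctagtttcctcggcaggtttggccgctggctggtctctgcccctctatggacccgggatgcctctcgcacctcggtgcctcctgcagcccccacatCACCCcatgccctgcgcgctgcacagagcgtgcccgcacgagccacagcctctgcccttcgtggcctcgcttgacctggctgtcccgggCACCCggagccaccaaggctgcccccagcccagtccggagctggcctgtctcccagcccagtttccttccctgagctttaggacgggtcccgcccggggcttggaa
Zfp932, chr5:109996260-109996559, plus strand: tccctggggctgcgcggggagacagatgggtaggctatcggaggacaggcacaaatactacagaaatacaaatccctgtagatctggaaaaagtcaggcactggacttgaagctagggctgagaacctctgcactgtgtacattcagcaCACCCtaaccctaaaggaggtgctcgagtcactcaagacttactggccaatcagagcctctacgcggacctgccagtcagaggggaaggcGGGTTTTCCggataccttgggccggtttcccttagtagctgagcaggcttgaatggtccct
H2az1, chr3:137864237-137864536, plus strand: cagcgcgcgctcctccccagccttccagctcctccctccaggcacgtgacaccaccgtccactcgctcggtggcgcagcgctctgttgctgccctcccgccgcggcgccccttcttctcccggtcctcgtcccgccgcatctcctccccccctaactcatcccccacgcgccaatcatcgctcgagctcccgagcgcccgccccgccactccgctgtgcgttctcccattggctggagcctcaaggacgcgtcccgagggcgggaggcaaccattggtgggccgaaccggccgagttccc
Kmt5c, chr7:4739877-4740176, plus strand: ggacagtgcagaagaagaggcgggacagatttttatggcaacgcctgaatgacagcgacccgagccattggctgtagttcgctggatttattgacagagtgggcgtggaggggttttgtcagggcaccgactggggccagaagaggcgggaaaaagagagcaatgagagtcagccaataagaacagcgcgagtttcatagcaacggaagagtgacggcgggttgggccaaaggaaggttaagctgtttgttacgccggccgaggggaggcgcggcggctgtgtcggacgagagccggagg
Stard10, chr7:101316836-101317135, plus strand: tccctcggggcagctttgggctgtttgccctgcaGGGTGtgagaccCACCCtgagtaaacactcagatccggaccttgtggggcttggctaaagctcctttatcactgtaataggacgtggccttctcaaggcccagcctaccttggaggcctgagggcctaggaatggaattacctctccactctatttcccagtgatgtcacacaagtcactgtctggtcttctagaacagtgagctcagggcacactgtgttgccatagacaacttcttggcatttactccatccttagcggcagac

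The capitals in 9630013D21Rik and Stard10 are KLF-type boxes (CACCC), and Zfp932 held 1 of these and 1 NF-kB-type match (GGGNNNTCC). The H2az1 and Kmt5c promoters held none of the 10 motifs. Over the 23 promoters, CACCC was found in 11 (47.8%, interval 29.2 to 67.0), against 60.5% of 6901 promoters with a start in a shared region and 57.0% of all 25748 promoters. The ETS motif GGAAGT was in 4 of the 23 (17.4%, interval 6.98 to 37.1), against 33.3% in shared regions and 24.3% of all promoters. The RUNX motif TGTGGT was in 3 of the 23, against 16.8% of all promoters, and the C/EBP motif TTGCNNAA in 2, against 10.9%. NF-kB matches were in 4, against 17.8% of all promoters. The E-box CAGCTG was also in 4, against 16.2%. In 1 promoter there was a GATA match (AGATAA, 11.4% of all promoters). In 1 there was an AP-1 match (TGANTCA, 7.99% of all promoters). CRE (TGACGTCA) and ISRE had no match among the 23, against 4.84% and 3.58% of promoters in shared regions and 1.92% and 3.50% of all promoters. With 23 promoters the intervals are wide, and for all 10 motifs they hold the share of all promoters. Median GC content was 57.7% in the 23 promoters, against 60.7% in shared regions, and the median ratio of observed to expected CpG was 0.556, against 0.797 in shared regions and 0.395 over all promoters.

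The starts were unlike in the marks that the rule had not used. For 8 of the 23 genes the region was covered in no H3K4me1 list and in all 4 HPC H3K27ac lists, which include both wild-type ones: Zfp932, H2az1, Trim32, Kmt5c and its divergent neighbour Gm42369, Cabin1, Mfap1b and Cryz. H2az1 encodes the histone variant H2A.Z, and Kmt5c a methyltransferase of histone H4. The H2az1 region (chr3:137864447-137864635) had 4.01-fold enrichment in knockout PBS and 3.76-fold in knockout 5FU, and ended 74 bp from a wild-type 5FU peak. The Zfp932 region (chr5:109996453-109996729), at a zinc finger gene, had 4.66-fold and 3.65-fold and lay 60835 bp from the nearest wild-type HSC peak. The wild-type progenitor lists thus held peaks at these starts, although no wild-type HSC list held the region. By contrast 6 genes, among them Stard10, Vwa7 and Dlg1, had at least 6 H3K4me1 lists and at most 1 HPC H3K27ac list, and the remaining starts were of neither sort. Neither pattern was counted at starts in shared or wild-type-only regions, so whether it is particular to knockout-only regions was not tested.

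One knockout-only region held a microRNA hairpin, Mir191, and its products are shown with the seed (bases 2 to 8) in capitals. It was chosen after its values were seen, and the sequences are RefSeq's on GRCm38.p6.
mmu-miR-191-5p: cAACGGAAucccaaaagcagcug
mmu-miR-191-3p: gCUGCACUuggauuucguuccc
The hairpin (chr9:108568319-108568392, plus strand) lay inside the region chr9:108568310-108568474. That region had 3.36-fold enrichment in knockout PBS and 3.43-fold in knockout 5FU, and wild-type peaks ended 76 bp (PBS) and 71 bp (5FU) away. It was covered in 9 of 10 H3K4me1 lists and in all 4 HPC H3K27ac lists.

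As a group the knockout-only regions were weak and narrow. Their fold enrichment over background in knockout PBS HSCs, as the authors' peak caller gave it, had a median of 3.04 (1.89 to 5.52), against 3.97 in the 36643 shared regions, which are knockout PBS regions found in knockout 5FU and in at least 1 wild-type list. In knockout 5FU HSCs the median was 3.15. Their median width was 202 bp, with a range of 105 to 1313 bp, against 567 bp in shared regions. The median −log10 p was 3.65 in knockout-only and 6.09 in shared regions. Within the knockout PBS list, 988 regions (61.0%) lay between percentiles 0 and 25 of −log10 p and 3 above percentile 75. Wild-type-only regions were alike, with a median width of 252 bp and a median fold enrichment of 3.04 in the wild-type PBS list.

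**Figure D1:**
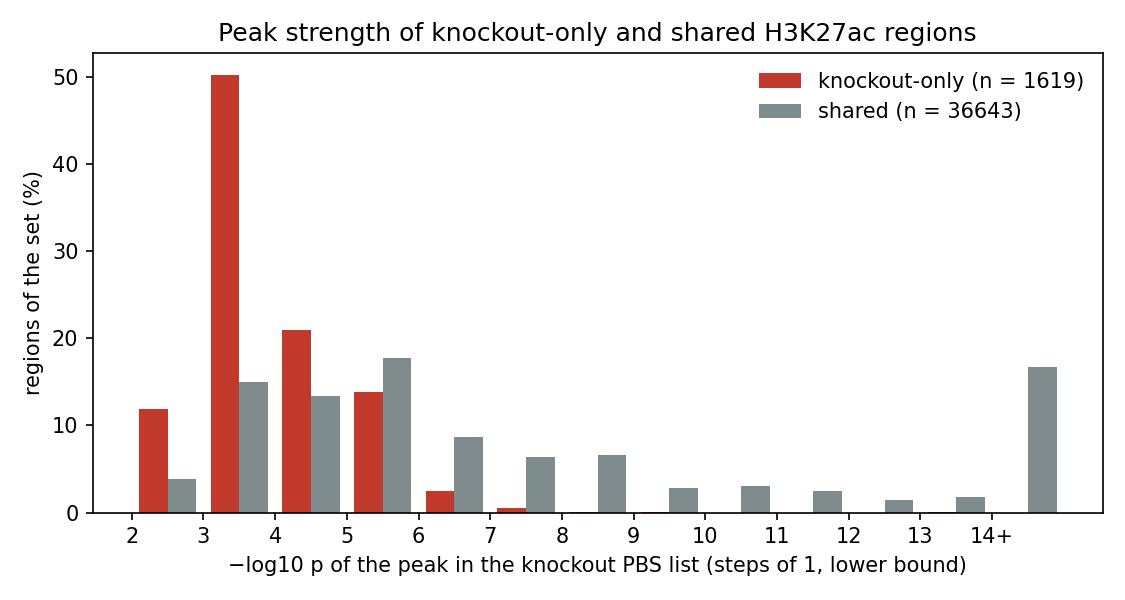
Share of regions (y axis, %) by −log10 p of the peak in the knockout PBS list (x axis, steps of 1, the last holding 14 and above), for the 1619 knockout-only and the 36643 shared regions. Knockout-only regions crowd into the step from 3 to 4, which holds 50.2% of them and 5495 of the 36643 shared regions, while 16.7% of shared and none of the knockout-only regions reach 14.

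Most knockout-only regions lay beside a wild-type peak. The median gap to the nearest wild-type HSC H3K27ac peak was 271 bp, and 1195 regions (73.8%, interval 71.6 to 75.9) had one at under 1 kb. In 229 regions (14.1%) a wild-type peak lay within 500 bp on each side, and in 797 (49.2%) on 1 side. A further 424 regions (26.2%) were at least 1 kb from every wild-type peak and 201 (12.4%) at least 10 kb. Wild-type-only regions lay near knockout HSC peaks in a like way, with a median gap of 404 bp. Of these, 68.0% had a knockout peak at under 1 kb, 32.0% were at least 1 kb away and 9.69% at least 10 kb. The boundary of the rule was not sharp: 31 regions that stopped within 10 bp of a wild-type peak had a median fold enrichment of 3.16, and 41 regions that overlapped wild-type peaks by at most 10 bp had 3.12. For 1308 regions (80.8%) the knockout 5FU region was itself clear of wild-type peaks, and for the other 311 the knockout 5FU region reached a wild-type peak elsewhere along its length. By chromosome, knockout-only regions made up 2.58% (chromosome 17) to 3.72% (chromosome 2) of knockout PBS regions.

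The strongest knockout-only region lay upstream of Vav1, which encodes a guanine nucleotide exchange factor of blood cells (gene 22324). At chr17:57276839-57277782, 1318 bp before the start, it had 5.52-fold enrichment with a −log10 p of 13.5 in knockout PBS and 3.86-fold with 8.41 in knockout 5FU. It was covered in all 4 HPC H3K27ac lists and in 9 of 10 H3K4me1 lists, all but the wild-type PBS one. The knockout HPC peaks spanned the whole region, with 8.99-fold (PBS) and 8.40-fold (IL-1). The wild-type HPC peaks reached only its upstream edge, ending at 57276962 (PBS, 3.17-fold) and 57276942 (IL-1, 2.75-fold). A second region inside the gene, chr17:57288429-57288654, had 3.63-fold and 5.50-fold. Beside them lay peaks of unlike height. The peak over the start had 8.24-fold (knockout PBS) and 8.06-fold (knockout 5FU), against 4.15-fold in wild-type PBS, while wild-type 5FU had none over the start and a peak of 2.28-fold that ended before it. The farthest upstream of the peaks plotted had 9.67-fold (knockout PBS) and 6.07-fold (knockout 5FU), against 5.70-fold (wild-type PBS) and 9.48-fold (wild-type 5FU), so its order turned between treatments. The peak that begins 9635 bp after the start had 10.2-fold and 12.3-fold in the knockout lists, where the wild-type lists held separate peaks of at most 3.30-fold and 4.12-fold. In HPCs that peak had 15.5-fold (knockout PBS) and 12.8-fold (knockout IL-1), against at most 4.40-fold (wild-type PBS) and 6.72-fold (wild-type IL-1). The HPC peak over the start was alike, at 9.67-fold (knockout PBS) and 8.68-fold (knockout IL-1), against 10.1-fold (wild-type PBS) and 8.66-fold (wild-type IL-1). All knockout mice carried the Vav-Cre transgene, so peaks on the transgene's copy of this sequence and on the Vav1 gene cannot be told apart at these 2 of the 1619 regions.

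**Figure D2:**
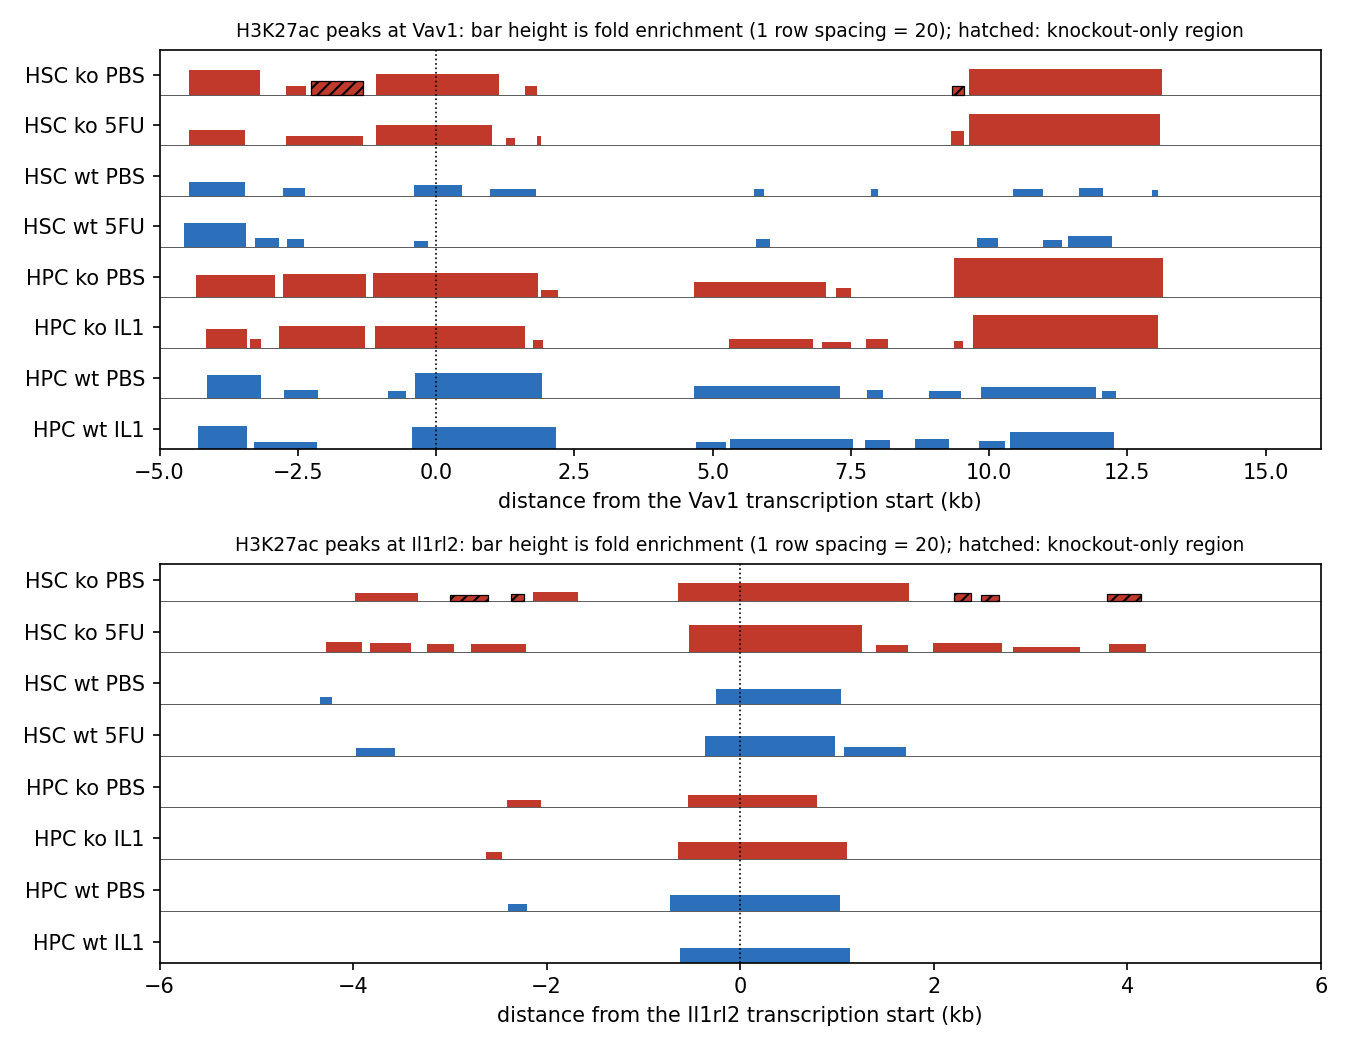
H3K27ac peaks of the 4 HSC and 4 HPC lists around the transcription starts of Vav1 (top) and Il1rl2 (bottom), by distance from the start (x axis, kb). Bar height is fold enrichment, with a row spacing of 20, red for knockout and blue for wild-type lists, and hatching for knockout-only regions: at Vav1 the peak that begins 9635 bp after the start is taller in the 4 knockout lists, up to 15.5-fold, whereas peaks at the start in HPCs are alike and the farthest upstream peak is taller in wild-type than in knockout 5FU HSCs, and at Il1rl2 the 5 knockout-only regions flank a peak at the start that all 8 lists share.

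Other strong regions lay at genes of several kinds. The region by Ndufb4, a subunit of respiratory complex I, had 5.47-fold in knockout PBS and 4.53-fold in knockout 5FU. It was covered in all 4 HPC H3K27ac lists and in no H3K4me1 list, as was the region by Gm6712 (5.06-fold and 4.31-fold). Regions inside Mef2c, a transcription factor of lymphoid and myeloid progenitors (4.09-fold and 6.38-fold), and inside Cux1, a homeobox gene (4.09-fold and 3.83-fold), were covered in all 10 H3K4me1 and all 4 HPC H3K27ac lists. The region inside Pik3r1, the regulatory subunit of phosphoinositide 3-kinase, had 4.41-fold and 4.96-fold with 7 H3K4me1 and 2 HPC lists. St8sia6 held the widest region, of 1313 bp (4.33-fold and 4.74-fold), 104 bp from a wild-type PBS peak. Regions at Foxp1, Fyco1, Arhgap23, Slx4ip, Mrps27 and Gm16230 completed, with 9630013D21Rik, the 15 strongest, with 3.85-fold to 4.66-fold in knockout PBS.

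The strongest region clear of wild-type peaks by more than 1 kb in both wild-type lists was at 9630013D21Rik, and covered the promoter shown above. At chr4:109656654-109657660 it had 4.17-fold in knockout PBS and 5.62-fold in knockout 5FU, and lay 8474 bp (wild-type PBS) and 7340 bp (wild-type 5FU) from a wild-type peak. It lies 3216 bp from the nearer end of Cdkn2c, which encodes the cell cycle inhibitor p18INK4c. A second knockout-only region, chr4:109656268-109656425, lay beside it (2.72-fold and 4.31-fold). Neither had an HPC H3K27ac peak in a wild-type list, and the first had one in knockout PBS HPCs (3.17-fold). At the Cdkn2c promoter itself all HSC lists had a peak of like height, 5.63-fold (knockout PBS) and 6.60-fold (knockout 5FU), against 6.12-fold (wild-type PBS) and 6.20-fold (wild-type 5FU).

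Il1r1, the signalling receptor for IL-1, had 6 knockout-only regions within 50 kb of the gene, out of 15 knockout PBS regions (40.0%, against 3.21% over all regions). The gene Il1rl2, the receptor for IL-36 and its neighbour, shares 5 of them. Those 5 lay within 4138 bp of the Il1rl2 start on either side, around a peak at the start that had 6.91-fold (knockout PBS) and 10.4-fold (knockout 5FU), against 5.80-fold (wild-type PBS) and 7.73-fold (wild-type 5FU). Their own enrichment ran from 2.06-fold to 3.00-fold in knockout PBS and from 3.10-fold to 3.44-fold in knockout 5FU. All 5 were below the median of knockout-only regions in PBS (3.04), and in 5FU they lay around it (3.15). From 6 kb before to 6 kb after the Il1rl2 start, knockout lists held 8 (PBS) and 9 (5FU) peaks over 4765 and 5552 bases, against 2 (PBS) and 3 (5FU) peaks over 1412 and 2404 bases in wild-type lists. HPCs did not show this: the knockout lists covered 1686 (PBS) and 1919 (IL-1) bases there, against 1956 (PBS) and 1758 (IL-1) bases in the wild-type lists. The regions before the start were covered in 9 H3K4me1 lists each, and the 3 after it in 2, 1 and none. The sixth region, chr1:40230131-40230329 inside Il1r1, had 2.31-fold and 3.87-fold and stopped 16 bp from a wild-type 5FU peak.

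Of 20665 protein-coding genes, 2979 (14.4%) had a knockout-only region in the gene or within 50 kb, and 1448 (7.01%) within 10 kb. Genes with many H3K27ac regions have more chances to hold one, so the share of the regions in the window is given beside each count. HSC identity genes stood above both backgrounds, with 17 of 30 genes (56.7%) and 34 of 631 regions (5.39%). Wild-type-only regions were also frequent there, with 56 regions at 21 of the 30 genes, against 31.4% of all protein-coding genes. Runx1, the transcription factor that founds the blood lineage, had 5 of 36 regions, Meis1, a homeobox cofactor of HSCs, 4 of 41, and Mecom, a regulator of long-term HSCs, 4 of 64. Kit, the stem cell factor receptor, had 3 of 19, and Mllt3 3 of 30. Single regions lay at Hlf, Gata2, Tal1, Procr, Fgd5, Ly6a and Lyl1, among others, and 2 at Prdm16. Hoxa5 and Hoxa9 shared 2. Around Meis1 and Mllt3 there was no wild-type-only region, whereas Prdm16 had 11 and Mecom 5.

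Most regions at HSC identity genes had no H3K27ac peak in progenitors. Of the 34, 24 were in no HPC H3K27ac list (70.6%, interval 53.8 to 83.2), against 858 of all 1619 knockout-only regions (interval 50.6 to 55.4). These intervals overlap, and other H3K27ac regions at the same genes were not compared. Of the 34, 1 was in no H3K4me1 list. The median fold enrichment of the 34 in knockout PBS was 3.04, the value of all knockout-only regions. At Meis1 the 4 regions had 2.80-fold to 3.20-fold in knockout PBS and 3.11-fold to 3.87-fold in knockout 5FU. They were covered in 9 or 10 of the 10 H3K4me1 lists, and only chr11:18945366-18945663 had H3K27ac in HPCs, in 2 lists. At Mecom all 4 regions lacked H3K27ac in HPCs, with 0 to 7 H3K4me1 lists. At Runx1 the 5 regions had between 0 and 4 HPC lists, and 4 of them were covered in all 10 H3K4me1 lists.

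By share of regions, lists of the descending lineages stood below the 3.21% over all regions, on few regions each and with no interval computed. By share of genes, only granulocyte and monocyte genes among them stood below the 14.4% over all genes. Granulocyte and monocyte genes had a knockout-only region at 2 of 23 genes (8.70%), with 2 of 172 regions (1.16%) and 30 wild-type-only regions. Cebpa and Spi1, the master regulators of that lineage, had none, beside 3 and 2 wild-type-only regions. Megakaryocyte and erythroid genes had 3 of 19 (Pf4, Zfpm1 and Tspan33; 1.49% of regions), and lymphoid genes 4 of 20 (Il7r, Cd79b, Gata3 and Bach2; 2.38%). Interferon response genes had 2 of 25 (Isg15 and Ifih1; 1.02%). Of the NF-kB and IL-1 response list only Il1r1 had any, 1 of 20 genes (3.17% of regions), while Nfkbia had 2 wild-type-only regions and none of the knockout kind. Windows of 50 kb take in neighbouring genes. The regions counted for Il7r, Cd79b, Gata3 and Ifih1 lay inside Capsl, Scn4a, Taf3 and Gca, and the Isg15 one at Noc2l.

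In the other lists the share of regions ran from 0 to 4.72%, against 3.21% over all regions. Quiescence and immediate early genes had 6 of 20 genes (30.0%, 2.68% of regions), namely Cdkn1a, Fosb, Foxo3, Ier2, Txnip and Zfp36, and Cdkn1a had 1 knockout-only beside 9 wild-type-only regions. Genes of H3K4 methylation and enhancer complexes had 5 of 16 genes (31.2%), with 6 of 127 regions (4.72%): 2 at Setd1a and 1 each at Kmt2a, Ash2l, Men1 and Kdm1a. The Kmt2a region lay at Atp5l and was the same one as counted for Cd3g among the mature lymphocyte markers. Cell cycle genes had 4 of 20 (Cdk6, Cdk1, Mcm2 and Pcna; 2.96%), p53 response genes 2 of 14 (2.75%) and housekeeping genes 3 of 13 (1.96%). Mature lymphocyte markers had 2 of 15 (2.27%), stroma and endothelium markers 4 of 15 (2.67%), and genes silent in blood 0 of 14.

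**Figure D3:**
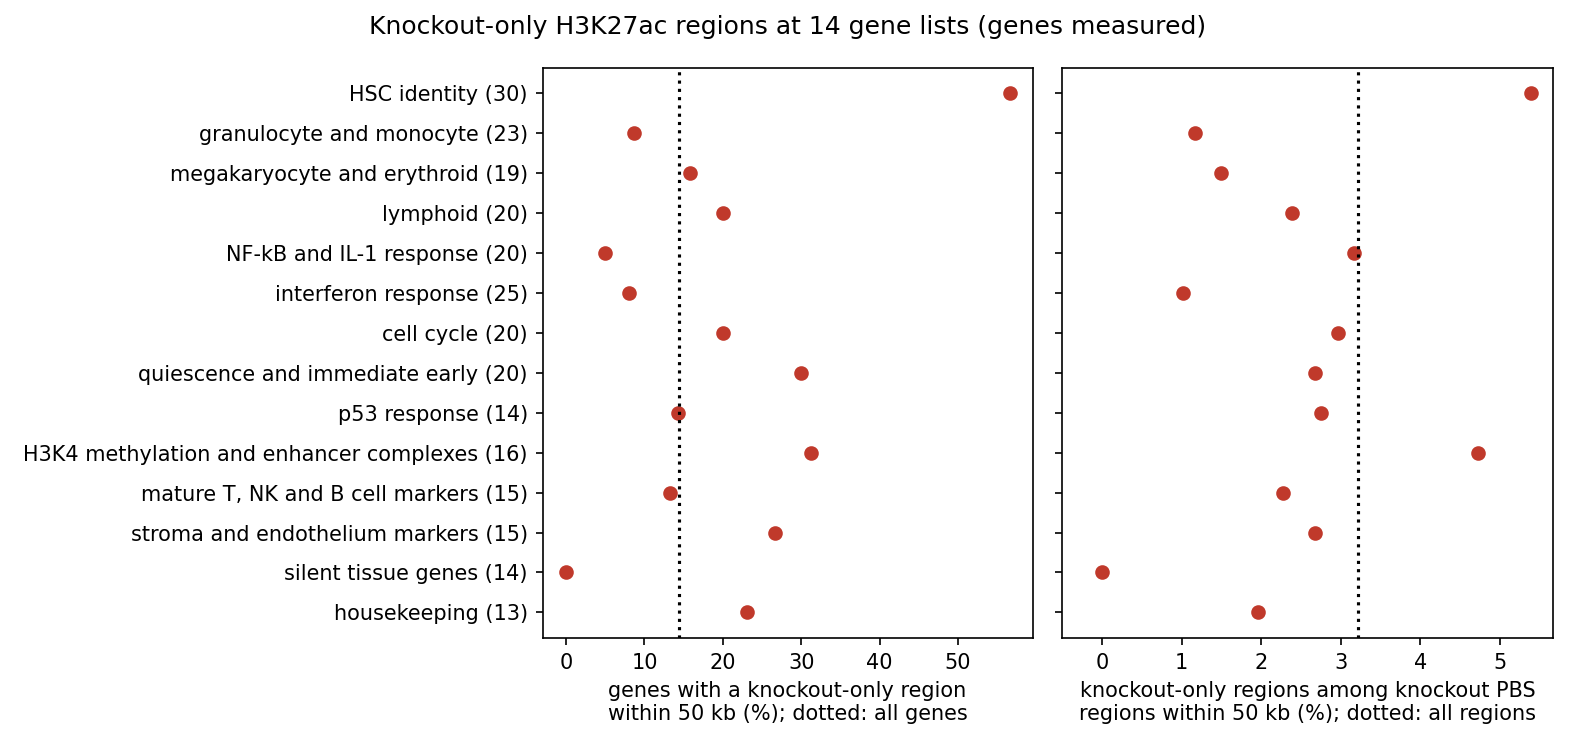
Left, share of genes in 14 lists with a knockout-only region within 50 kb; right, share of knockout-only regions among all knockout PBS regions in the same windows (x axes, %), with dotted lines at the values over all genes (14.4%) and all regions (3.21%). HSC identity genes lie farthest to the right in both panels (56.7% and 5.39%), and granulocyte and monocyte (1.16%) and interferon response genes (1.02%) lie left of the line in the right panel.

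Some genes outside these lists gathered several regions. Rnf220, a ubiquitin ligase, had the most, 9 of 33 regions, beside 3 wild-type-only regions. They had 2.80-fold to 4.09-fold enrichment in knockout PBS and 2.30-fold to 3.65-fold in knockout 5FU, and the 4 nearest the higher-coordinate end of the gene, between 117485886 and 117488499 on chromosome 4, were covered in 8 or 9 H3K4me1 and 3 or 4 HPC H3K27ac lists. Etv6, an ETS repressor that HSCs require, had 8, but out of 131 regions (6.11%). Cux1 had 6 of 54, Foxp1 5 of 72, and Fmnl3, Mbnl1 and Pacsin2 had 4 each of 13, 29 and 18. At Nhsl1 knockout-only regions were 4 of 6 (66.7%), none of them in an HPC list. In all, 96 protein-coding genes had 3 or more.

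By position, knockout-only regions lay mostly inside genes and away from gene ends. Of the 1619, 1007 (62.2%, interval 59.8 to 64.5) were inside a gene, against 46.0% of shared and 58.5% of wild-type-only regions. Within 1 kb of a gene end were 284 (17.5%, interval 15.8 to 19.5), against 37.5% of shared regions. Shared regions weighted to the same strength, by deciles of −log10 p in the knockout PBS list, had 22.8% within 1 kb of a gene end, and wild-type-only regions had 15.9%. Of the 1563 regions outside chromosome 18, for which starts were at hand, 22 held a transcription start (1.41%, interval 0.931 to 2.12), against 17.1% of shared and 1.42% of wild-type-only regions.

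H3K4me1 was present at most of the regions in at least 1 list. All 10 H3K4me1 lists covered 379 regions (23.4%), against 40.9% of shared and 26.7% of wild-type-only regions. No H3K4me1 list covered 197 (12.2%), against 8.74% of shared and 10.7% of wild-type-only regions. In knockout PBS HSCs, H3K4me1 lay over 715 regions (44.2%, interval 41.8 to 46.6), against 55.8% of shared regions, 55.4% of shared regions weighted to the same strength and 43.2% of wild-type-only regions. Weighted to the width of the knockout-only regions instead, shared regions had 48.1%. In untreated HSCs at 8 weeks the H3K4me1 lists covered 75.2% (knockout) and 71.8% (heterozygous), against 63.3% (wild type). Shared regions showed the same order in those 3 lists, at 81.7% and 79.4%, against 75.5%. In HPCs the shares were 63.2% (knockout) and 62.4% (heterozygous), against 60.9% (wild type), whereas in shared regions they were 74.7% and 76.1%, against 77.4%.

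**Figure D4:**
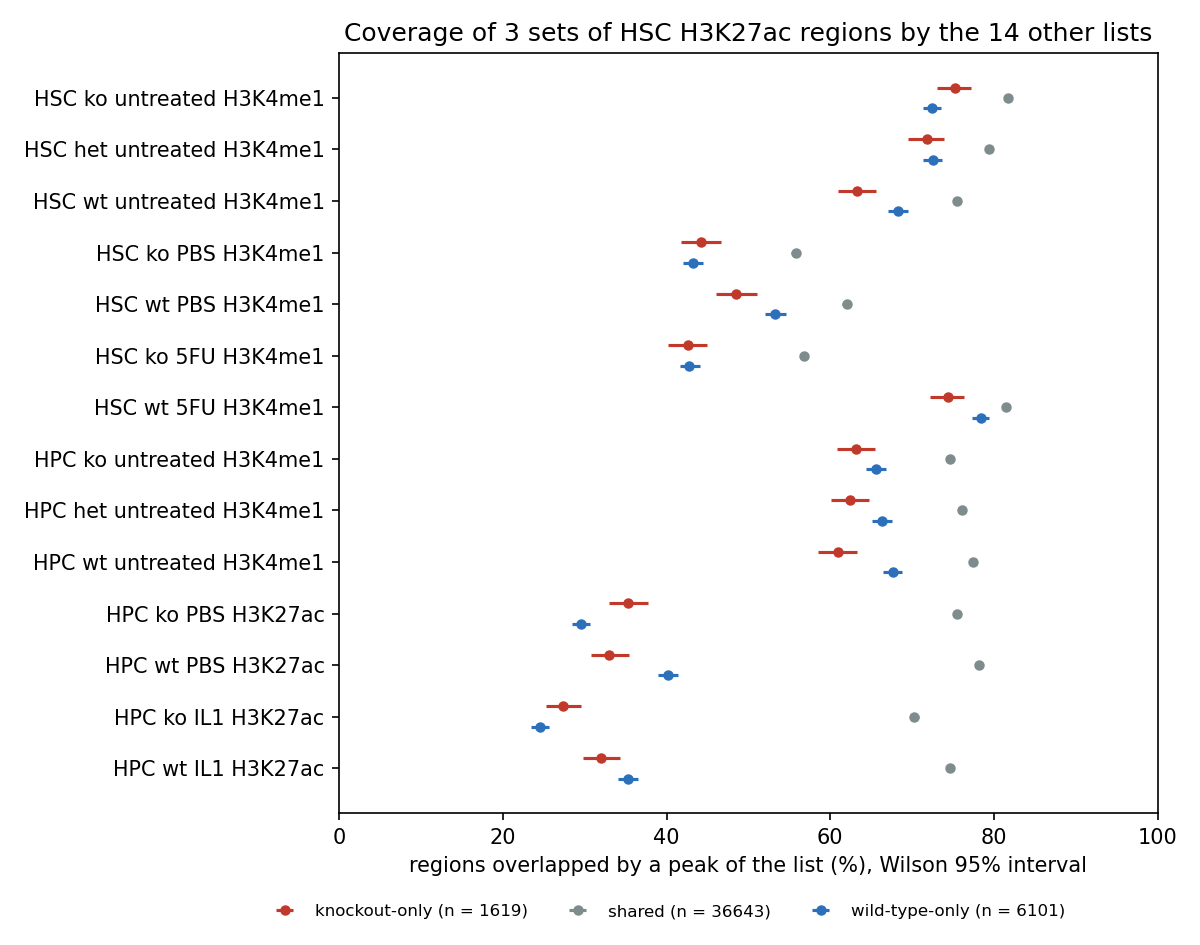
Share of regions overlapped by a peak (x axis, %) in each of the 14 lists that the rule did not use (rows), for knockout-only, shared and wild-type-only regions, with Wilson 95% intervals. Knockout-only regions lie left of shared regions in all 14 rows, most of all for H3K27ac in HPCs, where they reach 27.4% to 35.3% and shared regions 70.3% to 78.2%.

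Where only 1 genotype's list held H3K4me1, the side was compared with that of the shared regions, since the lists differ in size. At 8 weeks in HSCs, 244 regions (15.1%; 10.4% of all 50499 regions) were covered in the knockout list only and 52 (3.21%; 3.39% of all regions) in the wild-type list only, so 82.4% (interval 77.7 to 86.3) of one-genotype coverage was on the knockout side. In shared regions this was 75.0%, in shared regions of the same strength 73.9% and in wild-type-only regions 64.0%. The 8-week knockout list covered 113 Mb, against 85.8 Mb for wild type, and with lists limited to equal covered bases the knockout side held 38.9% in knockout-only and 35.8% in shared regions. In HPCs at 8 weeks, 144 regions (8.89%; 5.40% of all regions) were in the knockout list only and 107 (6.61%; 7.77% of all regions) in the wild-type list only, which put 57.4% (interval 51.2 to 63.3) on the knockout side, against 38.9% in shared regions and 42.6% in those of the same strength.

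At 16 weeks the H3K4me1 lists leaned to the wild type in every set. In PBS HSCs, 121 regions (7.47%; 6.13% of all regions) were in the knockout list only and 192 (11.9%; 12.2% of all regions) in the wild-type list only, a knockout share of 38.7% (interval 33.4 to 44.2), against 32.5% in shared regions (interval 31.4 to 33.7). These intervals overlap. After 5FU only 11 regions (0.679%; 0.337% of all regions) were in the knockout list alone and 526 (32.5%; 26.8% of all regions) in the wild-type list alone. That wild-type list covered 116 Mb from 6 libraries and the knockout list 44.2 Mb from 4. By their sample titles, some of those wild-type libraries belong to a labelled series that holds no knockout library. The parts of list size and of that series in the split were not tested.

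H3K27ac in progenitors was the mark that set knockout-only regions farthest from shared ones. In knockout PBS HPCs 572 regions (35.3%, interval 33.0 to 37.7) had a peak, and in wild-type PBS HPCs 535 (33.0%), against 75.5% and 78.2% of shared regions and 58.0% and 63.6% of shared regions of the same strength. After IL-1 the shares were 27.4% in knockout HPCs and 32.0% in wild-type HPCs. No HPC list covered 858 of the 1619 regions (interval 50.6 to 55.4), against 15.8% of shared and 52.0% of wild-type-only regions. All 4 HPC lists, wild type included, covered 297 (18.3%), against 64.2% of shared and 18.7% of wild-type-only regions. These 297 thus had a peak in wild-type progenitors though in no wild-type HSC list. None of the 14 lists covered 129 regions (7.97%), against 1.05% of shared and 7.08% of wild-type-only regions.

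The genotype at which HPC H3K27ac appeared differed from that of shared regions. In PBS HPCs 151 regions (9.33%; 4.28% of all regions) had a peak in the knockout list only and 114 (7.04%; 7.09% of all regions) in the wild-type list only. The knockout side thus held 57.0% (interval 51.0 to 62.8), against 36.5% of one-genotype coverage in shared regions, 32.5% in those of the same strength and 20.2% in wild-type-only regions. Among regions at least 1 kb from a wild-type HSC peak it held 67.7% (44 against 21 regions, interval 55.6 to 77.8), and among the others 53.5%. After IL-1, 85 regions (5.25%; 3.42% of all regions) were in the knockout list only and 159 (9.82%; 8.18% of all regions) in the wild-type list only, a knockout share of 34.8% (interval 29.1 to 41.0), against 30.2% in shared regions, 25.9% in those of the same strength and 15.5% in wild-type-only regions. The knockout IL-1 list covered 36.4 Mb and the wild-type one 44.3 Mb.

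**Figure D5:**
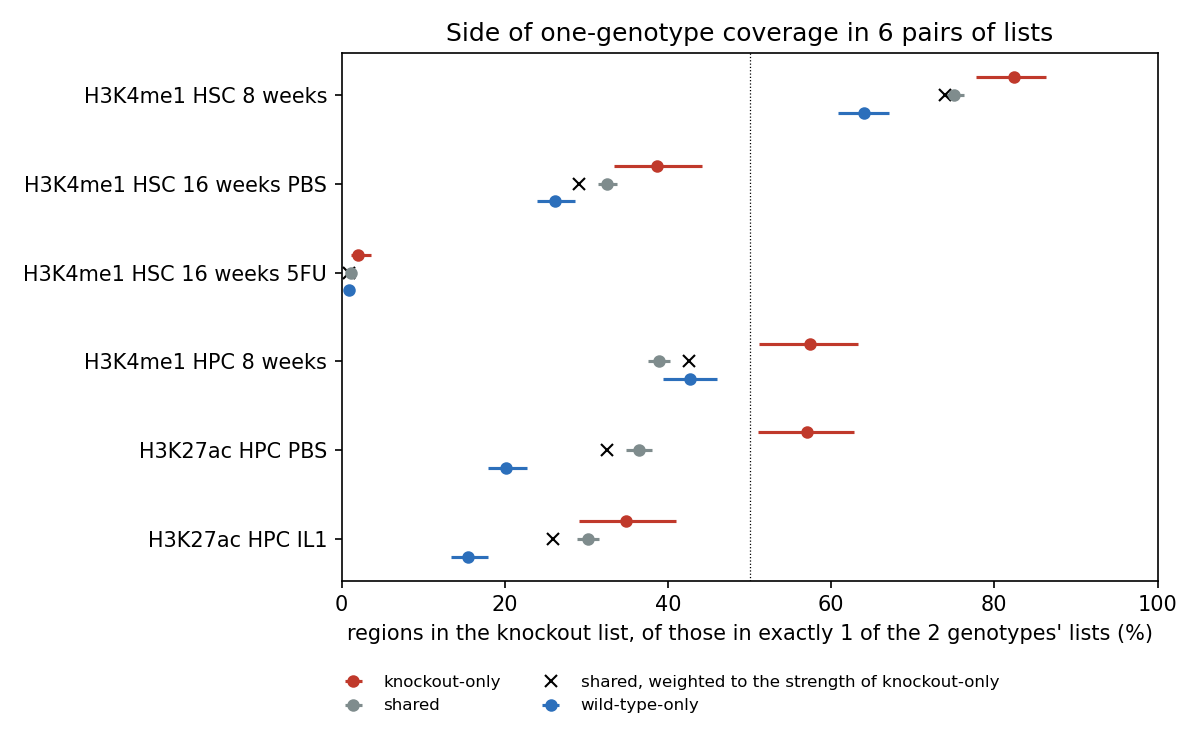
Of the regions covered in exactly 1 genotype's list, the share covered in the knockout list (x axis, %, with Wilson 95% intervals) for 6 pairs of lists and 3 sets of regions, with crosses for shared regions weighted to the strength of the knockout-only ones. In all 6 pairs the knockout-only regions lie to the right of shared regions, by the most for H3K27ac of PBS HPCs (57.0%, against 36.5%), and for HSCs at 16 weeks (PBS and 5FU) and for the IL-1 pair their intervals overlap those of shared regions.

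The genotype difference carried to both HPC treatments at few sites. Both knockout HPC lists and neither wild-type HPC list covered 24 regions (1.48%, interval 0.998 to 2.20; 0.721% of all regions), and the reverse held for 31 (1.91%; 2.11% of all regions). Of the 24, 11 lay within 1 kb of a gene end. The farthest of these from wild-type HSC peaks was at Spats2 (chr15:99125913-99126628, 2.85-fold in knockout PBS and 3.05-fold in knockout 5FU, 50447 bp away), and others included Snx25, Pxk, Zfp235, Cdh3, Heatr1, Cby3, Cep44 with Fbxo8, and Tgfbr1 with Gm32435. Tgfbr1 encodes a receptor of TGF-beta and Cdh3 P-cadherin. Of the regions inside genes, 2 lay in Arid1b, a subunit of the SWI/SNF chromatin remodeller, and 1 in Gab2, an adaptor of cytokine receptor signalling, and these were chosen after their values were seen.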

How the data were processed

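Chromatin bound by H3K4me1 or H3K27ac antibodies was tagged with Tn5 (ChIPmentation), per the labels' protocols, in 69 samples, of which 6 were input chromatin. The authors deposited 1 peak list for each of 18 groups, so replicates were pooled. The submitters' processing notes name Novoalign, MACS2 and the build mm10 (GRCm38). Versions, filters and how the lists were pooled are not stated in the sources at hand. Positions were read from the deposited lists, with the fold enrichment (a linear ratio), −log10 p, summit offset and a significance score (−log10 q) of each peak as the authors' caller gave them. Read numbers were not used, so depth is unknown.

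Peaks on autosomes that overlapped or touched were merged, with the values of the peak of highest −log10 p kept, and regions overlapped at 1 bp or more. Shared regions were also weighted to the knockout-only regions in 10 bins of −log10 p, or of width. Genes and starts came from RefSeq tables on GRCm38.p6; the start table used here holds none for chromosome 18. Windows reached 50 kb beyond genes. Of 274 list entries, 264 matched an autosomal protein-coding gene. Regions and lists were chosen with earlier results of these data known. Named genes were those nearest the 15 strongest regions by the lower of their 2 percentiles, up to 15 genes with 3 or more regions, list members with a region, up to 15 genes with an end at regions found in both knockout HPC lists alone, and 8 reference genes; a few of these are not reported here. Python 3.11.15, numpy 2.4.6, pandas 2.3.3 and scipy 1.17.1 were used, and the interval steps were tested on simulated lists, where all 421 planted knockout-only regions were recovered.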

Additional observations from a re-analysis of the deposited data

How the results depend on the processing

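The number of regions and 5 of their shares were recomputed with an overlap of at least 50% of the shorter region, with regions at least 1 kb from wild-type peaks, with lists limited to equal numbers of peaks or equal covered bases, with −log10 q of at least 2 in every list, and with regions in the top 50% of −log10 p. The requirement that the knockout 5FU region also be clear of wild-type peaks, and the mirror counts at equal list sizes, were added after seeing the data. The number of regions became 424 at the 1 kb distance, 4824 at equal covered bases, 343 at the q limit and 276 in the top 50%. The share with H3K4me1 in knockout PBS HSCs became 40.3% at 50% overlap, 47.8% at equal peaks, 51.4% at equal bases, 25.1% at the q limit and 41.3% in the top 50%. The knockout side of one-genotype H3K4me1 became 73.1% at equal peaks and 72.7% at the q limit, where shared regions had 76.7%, and turned to 38.9% at equal bases. The share with H3K27ac in knockout PBS HPCs became 24.8% at 1 kb, 40.2% at equal peaks, 47.5% at equal bases, 48.4% at the q limit, 44.9% in the top 50% and 33.0% with clear 5FU regions. The knockout side of one-genotype HPC H3K27ac became 67.7% at 1 kb, 64.1% at equal peaks, 65.2% at equal bases and 70.6% in the top 50%, and was above that of shared regions under all 7 alternatives, where shared regions had 33.9% to 51.9%. The share near a gene end became 19.5% at 50% overlap, 14.9% at 1 kb, 20.1% at equal bases, 22.2% at the q limit, 22.5% in the top 50% and 12.9% with protein-coding genes only, below that of shared regions under all 8 alternatives. The gene lists were recomputed only with windows of 10 kb in place of 50 kb, where 31 in place of 55 list entries held a region. HSC identity then had 15 in place of 17 genes, lymphoid 1 in place of 4 and interferon response 0 in place of 2. Promoters, motifs and single loci were not recomputed. The causes of these changes were not tested, beyond fewer peaks or a shorter window entering by construction.

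No paired analysis was possible because each group has 1 pooled list, and leaving out single libraries was not possible for the same reason. Without read numbers, whether a missing wild-type peak is a lower signal or a peak just under the caller's limit was not tested.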

Other observations

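Away from any wild-type HSC peak, the strongest regions lay at loci outside the gene lists, chosen after their values were seen. A pair at Gm32920 on chromosome 1 (chr1:34683215-34683818 and chr1:34686606-34687118) lay 80734 and 84125 bp from the nearest wild-type peak, with 3.61-fold and 3.85-fold enrichment in knockout PBS and 4.53-fold and 4.32-fold in knockout 5FU. H3K4me1 covered them in 7 and 4 lists, and no HPC list held H3K27ac there. A region near E2f2, which encodes an activator of S-phase genes, had 4.01-fold and 3.43-fold at 11066 bp from a wild-type peak, and 1 inside Limch1 had 3.85-fold and 3.43-fold at 116417 bp. Of the 424 regions at least 1 kb from a wild-type peak, HPC H3K27ac covered 24.8% (knockout PBS) and 19.3% (knockout IL-1), against 19.3% (wild-type PBS) and 20.3% (wild-type IL-1).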
